A study of Homo sapiens with 3 samples.

Results

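The sgRNAs described here target the genes that activate long-chain and medium-chain fatty acids to acyl-CoA (ACSL, ACSBG and ACSM), the thioesterases that split acyl-CoA again (ACOT) and the fatty acid transport proteins (SLC27A). The set of genes was chosen with earlier results of these data known. Within it the guides were taken by gene name alone, with no threshold on a measured value. The rule was every guide whose target symbol begins with ACSL, ACSM, ACSBG, ACOT or SLC27A. The rule gave 290 guides against 29 genes, 10 guides per gene, of the 30197 guides listed. By family these were 5 ACSL genes, 6 ACSM genes, 2 ACSBG genes, 10 ACOT genes and 6 SLC27A genes.

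The guides belong to a Cas9 knockout library of human metabolic genes that was carried by MIA PaCa-2 cells, an established line from a human pancreatic ductal adenocarcinoma (PDAC). Guides were counted in genomic DNA of 3 cell populations, namely the untreated population at day 0, cells grown for 14 days in DMSO (the solvent control), and cells grown for 14 days in apilimod, which inhibits the endosomal lipid kinase PIKfyve. The labels give 200 nM for apilimod, whereas the study's methods name a lower concentration for the 14-day screen, and which of them was used could not be told here. By the study's protocol the populations came from the same infected, puromycin-selected pool of a single cell line, and the question put to them was which metabolic knockouts were lost or gained in the presence of the inhibitor.

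A fatty acid has to be joined to coenzyme A before a cell can build it into phospholipids, triglycerides or cholesteryl esters, or oxidise it. Acyl-CoA synthetases make this thioester, each family favouring a range of chain lengths, and the SLC27A proteins, also called FATPs, take part in uptake and carry acyl-CoA synthetase activity of their own. Acyl-CoA thioesterases split this thioester again and release the free fatty acid in the cytosol, mitochondria or peroxisomes.

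Several of these genes are near copies that lie side by side, which limits what a guide named for one of them can be taken to cut. In GENCODE v44 (hg38), ACOT1 (chr14:73537143-73543796), ACOT2 (chr14:73567620-73575658), ACOT4 (chr14:73591873-73595766) and ACOT6 (chr14:73610945-73619888) all lie on the plus strand of chromosome 14. ACSM5, ACSM2A (chr16:20451461-20487669, plus strand), ACSM2B (chr16:20536226-20576427, minus strand), ACSM3 and ACSM1 form a comparable group on chromosome 16. The coding sequences of ACOT1 and ACOT2 were identical at 1250 of 1263 aligned bases (99.0%), and those of ACSM2A and ACSM2B at 1710 of 1731 (98.8%). Possible Cas9 target sites (20 bases next to an NGG on either strand) were sought in the spliced coding sequence. Sites across an exon junction, absent from the genome, may thus be counted, and sites reaching into an intron were missed. Of the 249 sites in ACOT1, 204 (81.9%) occurred unchanged in ACOT2. They made up 72.9% of the 280 sites of ACOT2. ACSM2A and ACSM2B shared 217 sites, which were 82.8% of 262 in ACSM2A and 83.5% of 260 in ACSM2B. The long-chain synthetases ACSL3 and ACSL4, in contrast, were identical at 70.6% of aligned coding bases and shared 2 sites. The sites below are shown as examples of target sequence that a pair holds in common, with the NGG in capitals. They lie within single exons and were read from GENCODE v44 coding sequences placed on hg38. Whether the library's own guides use them was not analysed here.
ACOT1 (chr14:73537454-73537476, plus strand, exon 1, coding) and ACOT2 (chr14:73569459-73569481, plus strand, exon 1, coding): ccgctgctgctgggacgaacCGG
ACSM2A (chr16:20460117-20460139, plus strand, exon 2, coding) and ACSM2B (chr16:20564821-20564843, minus strand, exon 2, coding): gcattggctgcgaaaagttcAGG

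The libraries held 24695476 counts at day 0, 26276517 in DMSO and 25599416 in apilimod, and these guides took 0.971%, 0.977% and 0.997% of them. A guide of this set had a median of 654, 684.5 and 673 counts in turn, close to the 651, 663 and 655 of all guides. A guide had to reach 100 counts at day 0 to be scored, which 279 of the 290 did, so that every one of the 29 genes kept 9 or 10 guides. The guides left out were 1 each of ACOT1, ACOT8, ACOT12, ACSBG1, ACSL4, ACSM2A, ACSM3, ACSM4, ACSM5, SLC27A1 and SLC27A4. The lowest of them, an SLC27A1 guide, had 2 counts at day 0 and 0 in both later libraries, and an ACOT1 guide went from 25 counts to 17 in DMSO and 337 in apilimod. Between the apilimod and DMSO libraries the counting error of a kept guide's log2 ratio had a median of 0.08 (range 0.03 to 0.31), while the SD between the guides of a gene had a median of 0.59. Guides of 1 gene thus differed by far more than counting error. The guides carry no molecular identifiers, so intervals from counts cover counting error only.

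A gene score is the mean log2 change of a gene's guides from the day 0 library, after each count plus 1 was divided by its library total. Scores are given as mean ± SD over the 9 or 10 guides of a gene, since each condition was a single library. The guides of a gene were ranked among 487 guides that cut intergenic sequence (an exact rank-sum test, two-sided), p-values were adjusted over 2969 genes after Benjamini and Hochberg (BH), and a gene was called lower or higher at an adjusted p under 0.05. These tests compare libraries, not conditions. The median log2 change over these controls was 0.14 in DMSO and 0.22 in apilimod, so a guide near 0 already lay below most controls.

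In DMSO, 5 of the 29 genes (17.2%) were called lower, beside 18.9% of all genes tested: the long-chain synthetases ACSL1, ACSL3 and ACSL4 and the transport proteins SLC27A1 and SLC27A5. None of the 29 was called higher, beside 0.842% of all genes, and 9 of the 29 had an unadjusted p under 0.05 in either direction, beside 882 of the 2969 genes. In apilimod, 8 genes (27.6%) were called lower, beside 29.0% of all genes: ACSL3, ACSL4, ACSL6, ACSBG1, ACOT11, SLC27A1, SLC27A4 and SLC27A5. Again none was called higher, beside 0.236% of all genes, with 11 of the 29 at an unadjusted p under 0.05, beside 1192 of the 2969 genes. The share of this set called lower was thus close to that of the library in each arm. The median score of the 29 genes was -0.10 in DMSO and 0.03 in apilimod, against -0.03 and -0.04 over all genes. Both arms are measured against the same day 0 library. When all gene-targeting guides took the place of the control guides, ACSL4 was the sole member called lower in DMSO (beside 7.48% of all genes) and SLC27A5 the sole member called lower in apilimod (beside 7.58%). By that null none of the 29 was called higher in DMSO (1.68% of all genes) or in apilimod (2.76%).

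Single guides of this set stayed mostly inside the range of the controls. In DMSO 22 of 279 guides (7.89%) lay under the central 95% of the control guides, which began at -0.78, against 13.5% of all gene-targeting guides, and 11 (3.94%) lay above it, against 3.62%. In apilimod 31 guides (11.1%) lay under the central 95% of the controls, which began at -0.85, against 14.5% of all gene-targeting guides. No guide of the set lay above the controls' central 95% in apilimod, which reached as high as 2.41, against 0.282% of all gene-targeting guides. In apilimod 58 of the 487 control guides (11.9%) had a log2 change above 1. So did 13 of the 279 guides of this set (4.66%), beside 5.10% of all gene-targeting guides. The 20 control guides of 100 to 200 counts at day 0 stood at a median of 1.91 in apilimod and the 70 of 200 to 500 counts at 0.52. Guides of this set in the same ranges stood at 0.38 and -0.04, and all gene-targeting guides at 0.20 and 0.03. The raised controls were thus not only the sparsest. The part of the sparsest controls in the results was examined by asking the control guides for 200 counts at day 0. This left the calls of these 29 genes in DMSO and in apilimod as they were and ended their single call between the 2 arms. Control guides above 200 counts that were also raised stayed in.

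The ACSL family, which activates long-chain fatty acids at the endoplasmic reticulum, mitochondria and other membranes, held 3 of the 5 calls in DMSO and 3 of the 8 in apilimod. Of its 5 genes 3 (60%) were called lower in each arm, beside 18.9% and 29.0% of all genes. The families were not tested as sets. With all gene-targeting guides as the null the ACSL family held 1 lower call in DMSO and 0 in apilimod, beside 7.48% and 7.58% of all genes. Its median score was -0.29 in DMSO and -0.18 in apilimod, and all 5 genes lay under the library median in DMSO. ACSL4, which prefers arachidonate and other polyunsaturated fatty acids and is known for the phospholipids that make cells prone to ferroptosis, was the lowest of the 29 genes in both arms. Its kept guides held, at day 0, in DMSO and in apilimod, the following counts: guide 1 with 1466, 923 and 638, guide 2 with 1465, 814 and 681, guide 3 with 243, 184 and 208, guide 4 with 323, 269 and 79, guide 5 with 866, 925 and 1002, guide 6 with 666, 432 and 761, guide 7 with 1606, 1504 and 1300, guide 8 with 1219, 870 and 759 and guide 9 with 1228, 518 and 517. Guides 1 to 4 and 7 to 9 had a lower share than at day 0 in both arms, guide 4 mainly in apilimod. Guide 6 was lower in DMSO (log2 change -0.71) and near its day 0 share in apilimod (0.14), and guide 5 held about its day 0 share. The summed abundance of the 9 guides was 367.8 CPM (counts scaled to a common library total) at day 0 (95% exact Poisson interval 360.2 to 375.4), 245.0 CPM in DMSO (239.1 to 251.1) and 232.2 CPM in apilimod (226.4 to 238.2). The score was -0.59 ± 0.40 in DMSO, with all 9 guides below the control median (BH-adjusted p = 1.64e-05, exact rank-sum). In apilimod it was -0.76 ± 0.75, again with all 9 guides below the control median (BH-adjusted p = 0.000353, exact rank-sum). From the bottom of 2969 genes, ACSL4 ranked 325 in DMSO and 304 in apilimod. Against all gene-targeting guides the DMSO call held at an adjusted p of 0.0347 and the apilimod call did not, at 0.0924, both BH-adjusted from the exact rank-sum.

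ACSL3, the long-chain synthetase of the endoplasmic reticulum and lipid droplets, was the other member of the family called lower in both arms. Its guides 1 to 10 had log2 changes of -0.64, -0.53, -0.32, -0.53, -0.52, -0.54, 0.43, 0.13, -0.77 and 0.19 in DMSO. In apilimod the same guides had log2 changes of -0.67, -0.48, -1.32, -0.46, -0.55, -0.89, 0.08, -1.26, 0.69 and 0.10. In DMSO 7 guides were lower than -0.30, and guide 9, the lowest there, was the highest in apilimod. The score was -0.31 ± 0.41 (n = 10 guides) in DMSO with 8 of 10 guides below the control median (BH-adjusted p = 0.0116, exact rank-sum), and -0.47 ± 0.63 in apilimod with 9 of 10 below (BH-adjusted p = 0.00266).

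ACSL1, the main long-chain synthetase of fat, heart and liver, was called lower in DMSO at -0.29 ± 0.31 with 9 of 10 guides below the control median (BH-adjusted p = 0.00159, exact rank-sum). Its 10 guides held between 114 and 939 counts at day 0 and between 93 and 923 in DMSO. In order, their log2 changes in DMSO were -0.37, -1.0, -0.11, -0.09, -0.25, -0.53, 0.15, -0.29, -0.38 and -0.07. Guide 2 was the lowest, and the call came with a small shift shared by nearly all guides. In apilimod its guides were at 0.67, -0.34, 0.42, 0.16, -0.45, -1.20, 0.18, -0.14, 0.44 and 0.10, a score of -0.02 ± 0.54 that was not called (BH-adjusted p = 0.356, exact rank-sum). ACSL6, an isoform best known from brain and from its handling of docosahexaenoate, was called lower in apilimod at -0.18 ± 0.61 with 8 of 10 guides below the control median (BH-adjusted p = 0.0288, exact rank-sum). The apilimod log2 changes of its guides 1 to 10 were -1.04, 0.78, -0.26, -0.26, -0.02, -0.61, -0.55, 0.95, -0.37 and -0.40. With a minimum of 300 counts at day 0 the call of ACSL6 ended, at a score of -0.13 and a BH-adjusted p of 0.154 (exact rank-sum). Guide 1 was the outlying guide of ACSL6 in DMSO, where it went from 434 counts to 100, and its score of -0.08 ± 0.85 was not called there (BH-adjusted p = 0.975, exact rank-sum). ACSL5, the synthetase of mitochondria and of intestinal epithelium, was not called, with scores of -0.14 ± 0.62 in DMSO and 0.18 ± 0.90 in apilimod. Its guides disagreed most in apilimod, where guide 4 went from 256 counts to 913 and guide 7 from 157 to 58.

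The ACSBG family ("bubblegum" synthetases of very long-chain and long-chain fatty acids, known from brain and testis) had 2 members. ACSBG1 was called lower in apilimod at -0.61 ± 0.68, with 8 of 9 guides below the control median (BH-adjusted p = 0.000674, exact rank-sum). The kept guides of ACSBG1 (guides 1 to 4 and 6 to 10) had apilimod log2 changes of -1.56, -0.64, -0.17, 0.41, -0.93, -0.27, -0.21, -1.69 and -0.42. Guides 1, 6 and 9 carried the largest losses, with 269, 190 and 236 counts at day 0. Guides 4 and 8 had 247 and 165 counts at day 0 and stood at 0.41 and -0.21. In DMSO ACSBG1 stood at -0.19 ± 0.46 and was not called (BH-adjusted p = 0.144, exact rank-sum), and ACSBG2 stood at -0.03 ± 0.29 in DMSO and 0.09 ± 0.47 in apilimod, called in neither. With a minimum of 300 counts at day 0 ACSBG1 kept too few guides to be scored.

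None of the 6 ACSM genes, the medium-chain synthetases of the mitochondrial matrix, was called in either arm. Among all genes 18.9% were called lower in DMSO and 29.0% in apilimod. The family median was 0.06 in DMSO and 0.15 in apilimod, and all 6 scores in apilimod lay above the median of all genes. ACSM2B had the highest DMSO score of the 29 genes, 0.34 ± 0.38, with 9 of 10 guides above the control median (BH-adjusted p = 0.142, exact rank-sum). The DMSO log2 changes of ACSM2B guides 1 to 10 were 0.27, 0.73, 0.62, 0.78, -0.55, 0.44, 0.16, 0.26, 0.42 and 0.33, with guide 5 as the sole negative value. In apilimod the same guides were at -0.03, -0.17, -0.07, 0.43, -0.23, 0.69, 0.12, -0.53, 0.35 and -0.28, a score of 0.03 ± 0.37. Its near copy ACSM2A scored 0.16 ± 0.59 in DMSO and 0.27 ± 0.64 in apilimod over 9 guides. The ACSM2A guides (guides 1 to 6 and 8 to 10) had log2 changes of 0.70, 0.21, 0.24, 1.20, -0.53, -0.65, -0.28, 0.47 and 0.10 in DMSO. In apilimod they were at 1.21, 0.41, 0.02, 1.35, 0.01, -0.60, -0.12, 0.29 and -0.17. Guides 1 and 4 of ACSM2A stood highest in both arms and were among its sparsest at day 0, with 122 and 115 counts. No 2 guides of the whole set had the same 3 counts.

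The other ACSM genes were spread around the controls. ACSM4 had the second highest apilimod score of the set, 0.37 ± 0.92, from guides (1 to 5 and 7 to 10) at 0.79, 0.70, 0.23, 0.72, -1.57, 0.44, 1.92, -0.04 and 0.18. Guide 8, at 109 counts at day 0 and 430 in apilimod, and guide 5, at 401 and 139, marked its extremes. In DMSO the ACSM4 guides were at 0.70, 1.16, 0.09, 0.04, -1.41, 0.09, -0.01, 0.03 and -0.22, a score of 0.05 ± 0.70. ACSM3 scored -0.20 ± 0.69 in DMSO and 0.16 ± 0.68 in apilimod, ACSM1 0.08 ± 0.54 and 0.14 ± 0.60, and ACSM5 -0.05 ± 0.53 and 0.12 ± 0.59. Adjusted p-values of the 6 genes ran from 0.142 to 0.975 in DMSO and from 0.229 to 0.921 in apilimod (BH-adjusted, exact rank-sum).

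Of the 10 ACOT thioesterases, ACOT11 was called lower in apilimod and none was called in DMSO, beside 29.0% and 18.9% of all genes called lower. The family median was 0.02 in DMSO and 0.13 in apilimod. ACOT11, a cytosolic enzyme with a lipid-binding START domain, scored -0.20 ± 0.42 in apilimod with 9 of 10 guides below the control median (BH-adjusted p = 0.0163, exact rank-sum). Its guides were well covered, with 438 to 2907 counts at day 0, and had apilimod log2 changes of 0.02, 0.48, -0.94, -0.18, -0.77, 0.05, 0.12, -0.19, -0.23 and -0.40. Guides 3 and 5 were lowest, and guide 2 went from 1487 counts to 2154. In DMSO ACOT11 stood at -0.11 ± 0.30 (BH-adjusted p = 0.095, exact rank-sum).

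ACOT12, the liver acetyl-CoA hydrolase of the cytosol, had the second lowest DMSO score of the 29 genes and the highest apilimod score. Its 9 kept guides held, at day 0, in DMSO and in apilimod, these counts: guide 1 with 1141, 410 and 1461, guide 2 with 1622, 1143 and 3109, guide 3 with 380, 242 and 348, guide 4 with 934, 1099 and 1297, guide 6 with 2343, 2097 and 3311, guide 7 with 1324, 835 and 855, guide 8 with 2648, 3751 and 5879, guide 9 with 1355, 1652 and 1527 and guide 10 with 429, 447 and 1110. Of the 9 guides, 8 had more counts in apilimod than in DMSO, guide 9 being the exception, and guides 1, 2 and 10 had the largest log2 ratios of apilimod over DMSO. In DMSO the score was -0.35 ± 0.62 with 6 of 9 guides below the control median (BH-adjusted p = 0.0613, exact rank-sum). In apilimod it was 0.42 ± 0.63 with 3 of 9 below (BH-adjusted p = 0.559, exact rank-sum). Neither score was called. The summed abundance was 493.0 CPM at day 0 (95% exact Poisson interval 484.3 to 501.9), 444.4 CPM in DMSO (436.3 to 452.5) and 738.2 CPM in apilimod (727.7 to 748.8).

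The thioesterases of the chromosome 14 group were not called in either arm, with scores of -0.15 to 0.30 in DMSO and 0.03 to 0.37 in apilimod. ACOT1 in the cytosol scored 0.15 ± 0.48 in DMSO and 0.03 ± 0.55 in apilimod, and its near copy ACOT2 in mitochondria 0.30 ± 0.58 and 0.13 ± 0.50. The DMSO log2 changes of the ACOT1 guides (1 and 3 to 10) were 0.68, 0.26, 0.52, -0.74, 0.45, -0.51, 0.40, 0.05 and 0.21. ACOT2 guides 1 to 10 were at 1.20, 0.60, 0.04, 0.08, 1.09, -0.12, 0.57, -0.73, 0.15 and 0.09 in DMSO, with guides 1 and 5 the highest. In apilimod the ACOT1 guides were at 0.75, 0.20, 0.76, 0.24, 0.19, -0.59, 0.01, -0.78 and -0.48. The ACOT2 guides were at 0.53, 0.54, -0.47, 0.10, 1.01, -0.23, 0.42, -0.56, 0.07 and -0.11, with guide 5 the highest. Peroxisomal ACOT4 scored 0.26 ± 0.43 in DMSO and 0.12 ± 0.60 in apilimod. ACOT6 had the widest guides of the group, at -0.15 ± 0.87 and 0.37 ± 0.68. The counts of ACOT6 at day 0, in DMSO and in apilimod were these: guide 1 with 2659, 2292 and 1969, guide 2 with 951, 1437 and 1022, guide 3 with 1057, 1125 and 1490, guide 4 with 246, 140 and 931, guide 5 with 104, 26 and 122, guide 6 with 1803, 2171 and 4153, guide 7 with 525, 1176 and 562, guide 8 with 1190, 1722 and 1052, guide 9 with 719, 816 and 861 and guide 10 with 869, 626 and 1210. Guide 4, with 246 counts at day 0, was lower in DMSO and the highest in apilimod (log2 change 1.86), followed there by guide 6 (1.15). Guide 5, with 104 counts at day 0, was the lowest in DMSO (-2.05) and near its day 0 share in apilimod (0.18). Guide 7 was highest in DMSO.

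The remaining thioesterases were not called. By compartment, the mitochondrial ACOT2, ACOT9 and ACOT13 had medians of 0.22 in DMSO and 0.15 in apilimod, the peroxisomal ACOT4 and ACOT8 0.08 and -0.06, and the cytosolic ACOT1, ACOT7, ACOT11 and ACOT12 -0.02 and -0.08. ACOT9 was even across its guides at -0.02 ± 0.27 in DMSO and 0.15 ± 0.28 in apilimod. ACOT13 scored 0.22 ± 0.39 and 0.30 ± 0.95, with guide 10 going from 157 counts to 174 in DMSO and 648 in apilimod. ACOT8, the broad thioesterase of peroxisomes, scored -0.10 ± 0.48 and -0.24 ± 0.87. ACOT7, the abundant acyl-CoA hydrolase of brain, scored 0.06 ± 0.62 and -0.20 ± 0.95, and its guide 7 went from 1322 counts to 678 in DMSO and 231 in apilimod. The 9 thioesterases that were not called in apilimod had adjusted p-values from 0.113 to 0.974 (BH-adjusted, exact rank-sum).

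The fatty acid transport proteins held the remaining calls, 2 of 6 genes in DMSO and 3 of 6 in apilimod, beside 18.9% and 29.0% of all genes. With all gene-targeting guides as the null 0 of the 6 were called lower in DMSO and 1 in apilimod, beside 7.48% and 7.58% of all genes. All 6 apilimod scores were under the median of all genes, with a family median of -0.40 in apilimod and -0.17 in DMSO. SLC27A5 (FATP5), a liver protein that also activates bile acids, was called lower in both arms with all 10 guides below the control median each time. Its guides held, at day 0, in DMSO and in apilimod, the following counts: guide 1 with 410, 261 and 190, guide 2 with 477, 514 and 321, guide 3 with 611, 524 and 410, guide 4 with 776, 843 and 376, guide 5 with 419, 488 and 257, guide 6 with 1495, 1411 and 1134, guide 7 with 1073, 1180 and 836, guide 8 with 1436, 1266 and 1094, guide 9 with 547, 397 and 352 and guide 10 with 196, 222 and 221. Of the 10 guides, 9 were lower in apilimod than in DMSO and guide 10 was nearly the same. Guide 4 was the most reduced. The score was -0.17 ± 0.29 in DMSO (BH-adjusted p = 0.0312, exact rank-sum) and -0.61 ± 0.36 in apilimod (BH-adjusted p = 4.5e-06). In DMSO guides 2, 4, 5, 7 and 10 lay slightly above 0, at 0.02, 0.03, 0.13, 0.05 and 0.09, but under the control median of 0.14. Against all gene-targeting guides the apilimod call held at an adjusted p of 0.0351. The DMSO call did not, at 0.622, with 5 of 10 guides below the median of that null (both BH-adjusted, exact rank-sum). The summed abundance was 301.3 CPM at day 0 (95% exact Poisson interval 294.5 to 308.2), 270.4 CPM in DMSO (264.2 to 276.8) and 202.8 CPM in apilimod (197.3 to 208.4). The DMSO call ended without the guide farthest from the gene median, at an adjusted p of 0.0781 (BH-adjusted, exact rank-sum).

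SLC27A1 (FATP1), the insulin-responsive transporter of muscle and fat, was also called lower in both arms. Its kept guides (1 to 7, 9 and 10) had log2 changes of -0.52, -0.84, -0.11, -0.84, 0.03, -0.60, -0.27, 0.14 and 0.20 in DMSO. In apilimod they were at -1.55, -0.59, -0.65, 0.07, 0.25, -1.10, -0.85, -0.10 and 0.35. Guides 1, 2, 6 and 7 were reduced in both arms, and guides 5 and 10 were above the control median in apilimod. The score was -0.31 ± 0.40 in DMSO with 7 of 9 guides below the control median (BH-adjusted p = 0.0152, exact rank-sum) and -0.46 ± 0.65 in apilimod with 7 of 9 below (BH-adjusted p = 0.00932).

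SLC27A4 (FATP4), the widely expressed family member of the endoplasmic reticulum that is needed for the skin barrier, was called lower in apilimod and not in DMSO. Its 9 kept guides held, at day 0, in DMSO and in apilimod, these counts: guide 1 with 158, 230 and 78, guide 3 with 640, 504 and 377, guide 4 with 741, 726 and 610, guide 5 with 1265, 1003 and 652, guide 6 with 190, 722 and 271, guide 7 with 1105, 871 and 673, guide 8 with 300, 277 and 491, guide 9 with 265, 339 and 98 and guide 10 with 319, 395 and 340. Counts were lower in apilimod than in DMSO for 8 of the 9 and higher for guide 8, while guide 6 stood out in DMSO as it went from 190 to 722. The score was 0.13 ± 0.72 in DMSO (BH-adjusted p = 0.549, exact rank-sum) and -0.48 ± 0.73 in apilimod with 7 of 9 guides below the control median (BH-adjusted p = 0.018). Summed over guides, SLC27A4 held 201.8 CPM at day 0 (95% exact Poisson interval 196.2 to 207.5), 192.8 CPM in DMSO (187.6 to 198.2) and 140.2 CPM in apilimod (135.7 to 144.9). Asked for 300 counts at day 0, SLC27A4 kept guides 3, 4, 5, 7, 8 and 10, a score of -0.37 in apilimod and no call (BH-adjusted p = 0.0682, exact rank-sum), and was called lower in DMSO.

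The other transport proteins were not called. SLC27A2 (FATP2), a peroxisomal very long-chain synthetase, scored -0.20 ± 0.87 in DMSO and -0.33 ± 0.87 in apilimod (BH-adjusted p = 0.0601, exact rank-sum in apilimod), with guide 3 going from 161 counts to 87 and 29. SLC27A3, a long-chain synthetase with little known part in uptake, scored -0.10 ± 0.54 and -0.21 ± 0.55 (BH-adjusted p = 0.0556, exact rank-sum in apilimod). SLC27A6, a transport protein known from heart, scored -0.17 ± 0.63 and -0.10 ± 0.68.

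Apilimod was then set against DMSO directly. Scores in each arm were put on a scale where 0 is the median of the controls and -1 the median of 24 nucleotide synthesis genes, and z is the centred difference in units of its SD across the 2969 genes. SLC27A5 was the sole member called, lower in apilimod (1 of 29, or 3.45%, beside 1.18% of all genes). Its unscaled log2 ratios over guides 1 to 10 were -0.42, -0.64, -0.32, -1.13, -0.88, -0.28, -0.46, -0.17, -0.14 and 0.03. The mean was -0.44 ± 0.36 with 9 of 10 guides below the control median, at z = -1.53 and a BH-adjusted p of 0.049 (exact rank-sum). That p sat at the threshold, and 6 of 12 alternative settings ended the call with z between -1.91 and -1.07 and adjusted p between 0.0299 and 0.544 over all 12. None of the 29 genes was called higher, beside 0.0337% of all genes, and 5 had an unadjusted p under 0.05 in either direction, beside 373 of the 2969 genes. Against all gene-targeting guides no member was called, lower (0.168% of all genes) or higher.

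SLC27A4 had the lowest z of the set at -2.13, rank 62 from the bottom of 2969 genes. Its guides (1 and 3 to 10) had log2 ratios of -1.51, -0.38, -0.21, -0.58, -1.37, -0.33, 0.86, -1.74 and -0.18, with a mean of -0.61 ± 0.81 and 8 of 9 below the control median (BH-adjusted p = 0.0918, exact rank-sum). Over 12 alternative settings z ran from -2.31 to -0.35, and none of them gave a call. The wide range, from -1.74 to 0.86, went with a larger SD than that of SLC27A5. ACSBG1 came after SLC27A5 in this order at z = -1.44, with a mean ratio of -0.41 ± 0.43 and 8 of 9 guides below the control median (BH-adjusted p = 0.118, exact rank-sum). Over 11 alternative settings its z ran from -1.97 to -0.59 and its BH-adjusted p from 0.0133 to 0.575 (exact rank-sum), with a call in 1, the fit without the farthest guide. Guide 5 of ACSBG1, left out for its 85 counts at day 0, went to 26 in DMSO and 98 in apilimod, a log2 ratio of 1.91. ACSM2B, which was highest in DMSO, was at z = -1.10 with a mean ratio of -0.32 ± 0.43 (BH-adjusted p = 0.254, exact rank-sum).

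At the other end, ACOT12 had the highest z at 2.80, rank 11 from the top of all genes. Guides 1 to 4 and 6 to 10 of ACOT12 had log2 ratios of 1.87, 1.48, 0.56, 0.28, 0.70, 0.07, 0.69, -0.08 and 1.35. The mean was 0.77 ± 0.67 with 8 of 9 guides above the control median, and it was not called (BH-adjusted p = 0.112 by exact rank-sum, and 0.0517 to 0.143 over 12 alternative settings). The guide of ACOT12 left out for its 88 counts at day 0 had 132 in DMSO and 309 in apilimod. ACOT6 came next at z = 1.90, from log2 ratios of -0.18, -0.45, 0.44, 2.76, 2.23, 0.97, -1.03, -0.67, 0.12 and 0.99. Its mean of 0.52 ± 1.24 had the largest SD of the set, with guides 4 and 5 the highest (BH-adjusted p = 0.845, exact rank-sum).

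By family the median z was -0.30 for ACSL, 0.52 for ACSM, -0.49 for ACSBG, -0.34 for ACOT and -0.46 for SLC27A, against -0.31 over the 29 genes and 0.01 over all genes. With the median over guides in place of the mean these became 0.18 for ACSL, 0.85 for ACSM, -0.31 for ACSBG, 0.01 for ACOT, -1.01 for SLC27A and 0.02 over the 29 genes, so the sign of the ACSL, ACOT and whole-set values turned. The ACSL genes that were called in either arm had no call between the arms, with z of -0.55 for ACSL3, -0.55 for ACSL4, 1.05 for ACSL1 and -0.30 for ACSL6. The test of the difference also did not pass for SLC27A1 (z = -0.49) and ACOT11 (z = -0.31). ACSL1 was called in DMSO alone and ACSL6, ACSBG1, ACOT11 and SLC27A4 in apilimod alone, but their adjusted p-values for the difference between the arms ran from 0.0918 to 0.805 (BH-adjusted, exact rank-sum), so no difference between the arms was shown for them.

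Genes that work beside these were scored as well, 40 in all. Their calls stand beside 18.9% of all genes called lower in DMSO and 29.0% in apilimod. Among 7 other acyl-CoA synthetases, ACSF3, the malonyl-CoA synthetase of mitochondria, was called lower in DMSO (-0.27 ± 0.47), and ACSF3 (-0.51 ± 0.66), ACSF2 (-0.53 ± 0.63) and the acetoacetyl-CoA synthetase AACS (-0.19 ± 0.74) were called lower in apilimod. The acetyl-CoA and propionyl-CoA synthetases ACSS1, ACSS2 and ACSS3 were not called. Of 6 other thioesterases none was called in DMSO, and THEM4 (-0.17 ± 0.17), THEM5 (-0.45 ± 0.83) and LYPLA2 (-0.26 ± 0.55) were called lower in apilimod. With all gene-targeting guides as the null, none of these synthetases and thioesterases was called lower in either arm. None of the 5 genes of the acylcarnitine shuttle (CPT1A, CPT1B, CPT1C, CPT2 and SLC25A20), which passes activated fatty acids into mitochondria, was called in either arm.

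ABCD4, a transporter that serves lysosomal cobalamin export, was called lower in DMSO (-0.64 ± 0.73) and in apilimod (-0.85 ± 0.70). ABCD3, which imports acyl-CoA into peroxisomes, was called lower in apilimod at -0.18 ± 0.31. Of 18 genes of fatty acid binding and other uptake, ACBD4 (-0.80 ± 0.89), ACBD5 (-0.38 ± 0.67) and FABP3 (-0.21 ± 0.39) were called lower in DMSO, and FABP12 (0.52 ± 0.39) and ACBD7 (0.62 ± 0.37) higher. In apilimod ACBD4 (-1.23 ± 1.51) and the scavenger receptor SCARB1 (-0.52 ± 0.70) were called lower. The uptake receptor CD36 scored -0.20 ± 0.52 and -0.08 ± 0.74 and was not called. In sum 6 of the 40 were called lower in DMSO and 11 in apilimod, beside 18.9% and 29.0% of all genes, and none was called between the arms, beside 1.18% of all genes called lower and 0.0337% higher. When all gene-targeting guides served as the null, 1 of the 40 in each arm was called lower (7.48% and 7.58% of all genes) and 2 in each arm higher (1.68% and 2.76%), FABP12 and ACBD7 in DMSO and FABP9 (0.71 ± 0.53) and ACBD7 (0.61 ± 0.37) in apilimod.

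With 1 library per condition the spread between cultures could not be measured, and the expression of these genes in MIA PaCa-2 cells was not analysed here. For the near-identical pairs ACOT1 with ACOT2 and ACSM2A with ACSM2B, whether a guide cuts the named gene, its copy or both could not be told without the guide sequences.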

How the data were processed

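MIA PaCa-2 cells carrying the metabolic knockout library were sampled at day 0 and after 14 days in DMSO or apilimod, 1 library each. The deposited values are raw read counts per guide. Per the labels and methods, the authors trimmed reads with cutadapt 4.1, aligned them with Bowtie2 2.4.5 to the guides and counted them with MAGeCK 0.5.9.5. Counts in the table of the whole series matched those of the single-library files at every guide (0 differences).

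Filtering and scoring were done as the study's methods describe: guides of at least 100 counts at day 0, genes of at least 6 such guides, a pseudocount of 1, division by the library total, log2 change to day 0 and the mean over guides. This left 28042 guides against 2969 genes and 487 of 499 intergenic control guides. Their reference of core essential genes was replaced by 24 nucleotide synthesis genes, with medians of -1.93 in DMSO and -1.85 in apilimod. For the 0 of the scale the methods name non-targeting guides, whereas the intergenic control guides set it here. A gene's guides were ranked among the controls (exact rank-sum test, two-sided, mid-ranks for ties), with Benjamini-Hochberg (BH) adjustment over all genes. Intervals of summed counts are exact Poisson intervals at 95% and cover counting error only. Count models need residual degrees of freedom, which 3 libraries in 3 groups do not give, and were not used.

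The set of genes, the gene lists and the alternatives were chosen with earlier results of these data known, and within the set guides were taken by gene name alone, with no threshold on a measured value. Every gene of the set is given by family. Guide values are given for each gene called in any comparison, for the 2 lowest and 2 highest scores of each comparison, for ACSL3, ACSL4 and SLC27A4, and for the pairs ACOT1 with ACOT2 and ACSM2A with ACSM2B. Single guides of other genes were chosen after their values were seen. Gene positions and target sites came from GENCODE v44 and hg38, in which all 29 genes were found. The tests were tried on simulated counts first and run in Python 3.11.15 with numpy 2.4.6, pandas 2.3.3 and scipy 1.17.1. Guide sequences were not analysed here. Of the neighbouring genes, 1 is counted but not reported by name here.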

Additional observations from a re-analysis of the deposited data

How the results depend on the processing

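No paired analysis was possible because each group had 1 library, and for the same reason no library could be left out. No score or z of a named gene that was called changed sign under any alternative. Taking all gene-targeting guides as the null left 1 gene called lower in DMSO, 1 in apilimod and 0 between the arms, and among the 40 neighbouring genes 1 in DMSO and 1 in apilimod. A day 0 minimum of 300 counts left 26 genes scored. By that setting 5 of them (19.2%) were called lower in apilimod, beside 27.5% of all genes. Between the arms it called 0 of them lower, beside 0.684% of all genes. The single call between the arms, SLC27A5, became 0 calls with a minimum of 30 counts, with no minimum, with control guides of at least 200 counts and when N-glycosylation genes set the scale. Leaving out the guide farthest from each gene's median gave 2 calls lower between the arms (ACSBG1 and SLC27A5) and 1 call higher in DMSO (ACSM2B), and in DMSO it called SLC27A3 lower and no longer SLC27A5. With a minimum of 300 counts SLC27A4 was called lower in DMSO. The median z of the 29 genes moved from -0.31 to 0.02 with the median over guides and to 0.18 without the farthest guide. The causes of these moves were not tested. Over all genes, the calls between the arms were 35 lower and 1 higher. They were 23 and 2 with a minimum of 30 counts or none, 19 and 1 with 300, 5 and 1 with all guides as the null, 90 and 2 without the farthest guide, and 10 and 27 with the N-glycosylation reference. All-gene calls in DMSO were 560 lower and 25 higher, against 222 and 50 with all guides as the null and 552 and 54 without the farthest guide. In apilimod 862 lower and 7 higher became 225 and 82 with all guides as the null, and the higher calls reached 14 with control guides of at least 200 counts or without the farthest guide, 13 with a minimum of 300 and 12 with none. Depth limits the sparse guides most, where the counting error of a log2 ratio reached 0.31.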
